A study of Mus musculus with 17 samples.

Results

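The genes described are insulin-like growth factor 1 (Igf1), its receptor Igf1r, the insulin receptor substrates Irs1 and Irs2, and the IGF-binding proteins Igfbp2, Igfbp3, Igfbp4, Igfbp5, Igfbp6 and Igfbp7. They were chosen by symbol through the annotation of the array platform, and all 10 are among the 14737 genes kept for testing. Total RNA of whole mouse uteri was measured on 17 Illumina MouseWG-6 v2 bead arrays. WT stands for the 9 arrays labelled wild type and KO for the 8 arrays labelled Egr1 knockout, an early growth response transcription factor gene. Uteri were taken before estradiol (E2, time 0 h) and 3, 6 and 24 h after it, with 2 arrays in each of the 8 groups except WT at 3 h, which has 3. The age and strain of the mice, the knockout allele, the E2 dose, any ovariectomy and any vehicle are not stated in the labels, and neither is whether the arrays of a group came from separate animals. The p-values therefore set differences between group means only against the scatter of these samples, shared over the 8 groups, and that scatter may be technical.

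IGF1 is a secreted growth factor that in the rodent uterus is made largely by the stroma after estrogen and acts on the epithelium. It binds the receptor tyrosine kinase IGF1R, which signals through the docking proteins IRS1 and IRS2 to phosphatidylinositol 3-kinase and to the RAS pathway. Most extracellular IGF is held by binding proteins, which limit or prolong its access to the receptor and are themselves cut by proteases such as PAPP-A.

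The start-site windows of the ligand and of its receptor are shown because their levels moved in opposite directions after E2. Each is 300 bases from RefSeq, build GRCm38.p6, written 5′ to 3′ in the direction of the gene, and ends just after the annotated start of transcription. Capitals mark matches to AGGTCA, 1 arm of the estrogen response element, read on either strand, and to TGANTCA, the AP-1 motif.
Igf1 (chr10:87860861-87861160, + strand): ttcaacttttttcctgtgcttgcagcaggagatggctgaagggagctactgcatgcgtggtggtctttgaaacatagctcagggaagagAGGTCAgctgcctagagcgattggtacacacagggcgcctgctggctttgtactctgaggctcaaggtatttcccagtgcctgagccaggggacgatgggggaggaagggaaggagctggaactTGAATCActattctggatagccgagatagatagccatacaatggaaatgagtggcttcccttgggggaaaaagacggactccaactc
Igf1r (chr7:67952007-67952306, + strand): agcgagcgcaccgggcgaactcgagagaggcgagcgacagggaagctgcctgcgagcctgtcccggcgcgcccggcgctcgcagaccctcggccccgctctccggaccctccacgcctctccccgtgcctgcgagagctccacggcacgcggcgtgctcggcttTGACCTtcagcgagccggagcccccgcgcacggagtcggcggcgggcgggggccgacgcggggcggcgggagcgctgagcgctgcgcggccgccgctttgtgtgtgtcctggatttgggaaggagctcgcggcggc
In the Igf1 window AGGTCA begins at position -161 and TGAATCA at -37, and in the Igf1r window the reverse complement TGACCT begins at -86, counted from the start site. AGGTCA on either strand stands in 16.26% of the 32851 windows of this length in the RefSeq table, and TGANTCA in 7.808%. All 10 symbols matched this table, in 11 windows because Igfbp2 has 2. The only other match was TGAGTCA in 1 of the Igfbp2 windows. The letters of the palindromic estrogen response element (GGTCA and TGACC with 3 bases between), of GCGGGGGCG and GCGTGGGCG (both written for EGR1) and of GTAAACA (for FOXO factors) were not found in any of the 11 windows, and they stand in 0.07001%, 2.907%, 0.6119% and 3.65% of all windows.

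Values are log2 values that were already quantile normalized between arrays, so a change is relative to the other probes of the same array, and 8.20 is the median probe on each array. The brightest probe stands for each gene, and levels of different genes are not compared. Of the 10 genes, 8 lay above the array median on all 17 arrays. Igfbp2 did so on 5 arrays (8.03 to 8.36) and Irs1 on 8 arrays (8.07 to 8.33), so neither is clearly above background here. Changes were tested with limma over the 14737 genes, and a change is said to rise or fall if its Benjamini-Hochberg adjusted p was under 0.05.

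The knockout label was checked on Egr1 itself. Its single probe gave no lower call in KO: the group means were 13.55 in KO and 12.37 in WT at 0 h, 14.64 and 14.79 at 3 h, 14.65 and 13.91 at 6 h, and 13.39 and 11.74 at 24 h. KO was higher at 0 h by 1.18 and at 24 h by 1.65 (limma adjusted p = 0.00302 and 1.47e-04), and the differences of -0.15 at 3 h and 0.73 at 6 h did not pass (limma adjusted p = 0.695 and 0.0924). The labels do not say what part of Egr1 was removed, so this probe may or may not report on it. Arrays are therefore called KO and WT by their labels only. Arrays of the same group correlated at 0.990 to 0.997 over all probes, and arrays of different groups at 0.942 to 0.994, so the ranges overlap. The 0 h arrays stood apart for some genes described here, which is said where it matters. The labelled tissue was borne out by bright markers of smooth muscle (Acta2 15.81 to 15.92), stroma (Dcn 13.90 to 15.23) and epithelium (Krt8 11.83 to 13.50). Not all markers of these cell types were bright. The epithelial markers Epcam (8.10 to 8.57) and Foxa2 (8.02 to 8.42) and the smooth muscle marker Synpo2 (8.14 to 8.28) lay near the array median. Of the adipocyte markers, Adipoq, the adiponectin gene, ranged from 8.57 to 13.26. Plin1 (7.90 to 8.65) and Fabp4 (7.90 to 8.44) lay near the array median.

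At 6 h after E2 the ligand Igf1 had risen, and Igf1r, Irs2, Igfbp3, Igfbp4 and Igfbp6 had fallen, in both genotypes. In WT at 3 h 0 of the 10 genes rose and 6 fell, against 22.2% rising and 24.5% falling of all genes tested. At 6 h 1 rose and 7 fell (21.9% and 22.1% of all genes), and at 24 h 1 rose and 5 fell (18.9% and 19.0%). In KO the counts were 0 and 5 at 3 h (19.0% and 21.4% of all genes), 1 and 5 at 6 h (21.8% and 23.0%), and 2 and 4 at 24 h (22.5% and 23.1%). The median change of the 10 genes was -0.49, -0.60 and -0.24 in WT and -0.47, -0.53 and -0.08 in KO at 3, 6 and 24 h, while the median over all genes was -0.01 to 0.00. The arrays did not overlap with those at 0 h for 6, 9 and 8 of the 10 genes in WT and for 7, 9 and 8 in KO, against 60.0%, 68.0% and 67.3% of all genes in WT and 66.7%, 69.4% and 73.4% in KO. Between neighbouring times 5 of the 10 genes changed from 3 to 6 h in WT and 4 in KO (26.0% and 23.3% of all genes), and 5 and 4 from 6 to 24 h (38.3% in both genotypes). All these comparisons share arrays within a genotype, those at 0 h above all.

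**Figure D1:**
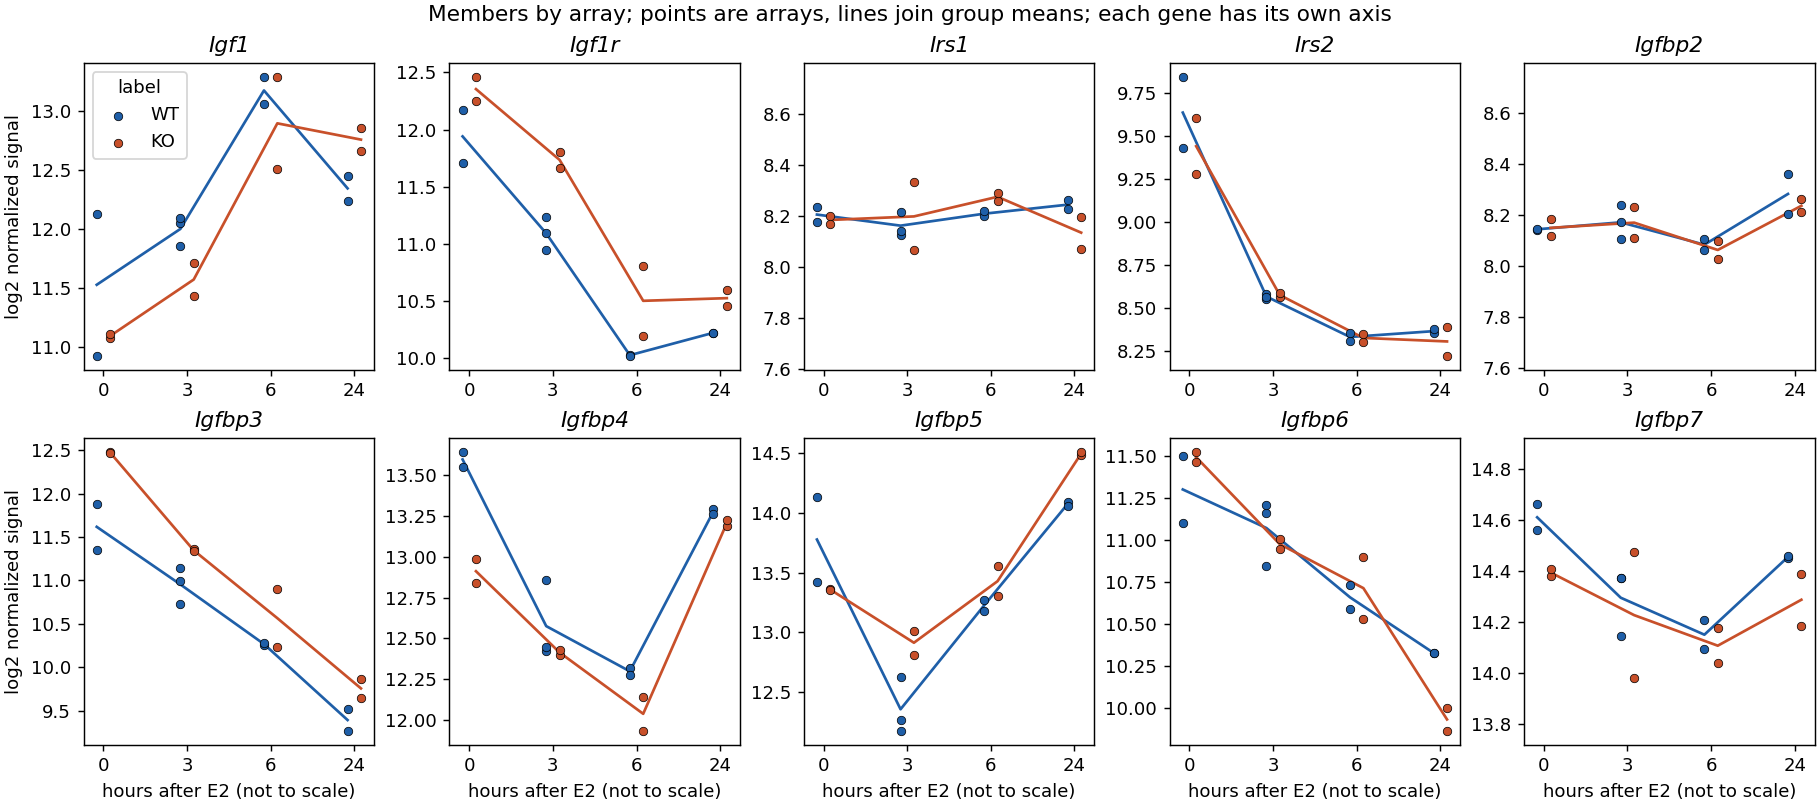
Level of each of the 10 genes (log2, vertical axis) by time after E2 in hours (categories on the horizontal axis), with 1 point per array and a line through the group means, WT and KO in separate colours. Igf1 climbs to 6 h and Igf1r, Irs2, Igfbp3 and Igfbp6 descend in both genotypes, while the means of Igfbp4 and Igfbp5 are lowest at 6 h and 3 h and higher again at 24 h.

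The ligand Igf1 was higher at 6 h than at 0 h in both genotypes. WT arrays read 12.13 and 10.92 at 0 h, 12.05, 11.85 and 12.10 at 3 h, 13.06 and 13.29 at 6 h, and 12.45 and 12.24 at 24 h. KO arrays read 11.07 and 11.11 at 0 h, 11.71 and 11.43 at 3 h, 13.29 and 12.51 at 6 h, and 12.66 and 12.86 at 24 h. All 4 arrays at 6 h lay above all arrays at 0 h and 3 h, and the WT 0 h arrays differed from each other by more than any other pair of a group. The 6 h rise was 1.65 ± 0.30 in WT (SE; 3.14-fold, limma adjusted p = 4.01e-04) and 1.80 ± 0.30 in KO (3.49-fold, adjusted p = 1.70e-04). At 3 h the differences of 0.47 and 0.48 did not pass (limma adjusted p = 0.180 and 0.238), though the KO value passed with only the compared groups in the fit (limma adjusted p = 0.0229).

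By 24 h Igf1 in KO was still 1.67 ± 0.30 above 0 h (3.17-fold, limma adjusted p = 3.36e-04), and in WT 0.82 ± 0.30 above it (1.76-fold, limma adjusted p = 0.0438). The step from 3 to 6 h was 1.18 in WT and 1.33 in KO (limma adjusted p = 0.00573 and 0.00560). The WT step did not pass when the second WT 6 h array was left out (1.06, limma adjusted p = 0.0689) and the KO step without the first KO 6 h array (0.93, limma adjusted p = 0.0777). From 6 to 24 h Igf1 fell by 0.83 in WT (limma adjusted p = 0.0403), a call that was lost in 9 of the 17 fits that each left out 1 array and with the mean of both probes (-0.66, limma adjusted p = 0.0987). In KO that step was -0.14 (limma adjusted p = 0.776). The KO change at 24 h exceeded the WT change by 0.85, with a 95% interval of -0.06 to 1.75, which did not pass (limma adjusted p = 0.257).

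How far Igf1 had risen in WT depended on which 0 h array was used. Leaving out 1 WT 0 h array at a time gave a 6 h rise of 2.25 (first array out) or 1.05 (second array out), and both values passed. Without the first array the rise was 1.08 at 3 h (limma adjusted p = 0.00133) and 1.42 at 24 h, and without the second it was 0.22 at 24 h (limma adjusted p = 0.582). The 24 h call in WT was lost in 12 of the 17 fits that left out 1 array, with only the WT 0 and 24 h arrays in the fit (limma adjusted p = 0.187) and with no filter on dim probes (limma adjusted p = 0.0519). Without the second WT 0 h array Igf1 was also lower in KO than in WT at 0 h (-1.04, limma adjusted p = 0.0136), and its change at 24 h was larger in KO by 1.45 (limma adjusted p = 0.00732). With all arrays the KO value at 0 h was -0.43 relative to WT (limma adjusted p = 0.5004). The other kept Igf1 probe followed the first at r = 0.98 over the 17 arrays and changed by 1.32 in WT and 1.42 in KO at 6 h.

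The receptor gene Igf1r fell in both genotypes, to 0.266 of its 0 h level in WT and 0.277 in KO by 6 h. In WT the levels were 11.71 and 12.17 at 0 h, 11.09, 11.23 and 10.95 at 3 h, 10.03 and 10.02 at 6 h, and 10.23 and 10.22 at 24 h. In KO the levels were 12.46 and 12.25 at 0 h, 11.67 and 11.80 at 3 h, 10.20 and 10.81 at 6 h, and 10.60 and 10.46 at 24 h. Within each genotype the 0, 3 and 6 h arrays did not overlap, and the 6 and 24 h arrays were at a like level. The change at 3 h was -0.85 ± 0.16 in WT and -0.62 ± 0.17 in KO (SE; limma adjusted p = 4.47e-04 and 0.00998). At 6 h it was -1.91 ± 0.17 in WT and -1.85 ± 0.17 in KO (0.266-fold and 0.277-fold, limma adjusted p = 1.04e-06 and 1.13e-06). At 24 h it was -1.72 and -1.83 (limma adjusted p = 8.14e-06 and 1.72e-06), and the step from 6 to 24 h was 0.20 and 0.02 and did not pass.

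The KO arrays lay above the WT arrays for Igf1r at every time, without overlap, by 0.41, 0.64, 0.48 and 0.30 at 0, 3, 6 and 24 h. Only the 3 h difference passed (limma adjusted p = 0.0370, 1 of 10 genes, against 4.23% of all genes called), and it held in 6 of the 17 fits that left out 1 array. It was lost with array weights (0.63, limma adjusted p = 0.0603), the replicate number or title letter as a block (0.57 and 0.62, limma adjusted p = 0.115 and 0.0659) and the mean of probes (0.21, limma adjusted p = 0.0636). The 0 h difference passed without the second WT 0 h array (0.64, limma adjusted p = 0.0410) and the 6 h difference without the first KO 6 h array (0.78, limma adjusted p = 0.0156). Of all genes, 44.5%, 32.7%, 43.8% and 59.5% had KO and WT arrays that did not overlap at these times. The 3 other Igf1r probes were dim, and the brightest of them (mean 8.67) changed by -0.36 in WT at 6 h, less than the main probe. With the mean of the kept Igf1r probes the change at 6 h was -0.57 in WT and -0.54 in KO, which both passed, and the 3 h change in KO was -0.15 and did not pass (limma adjusted p = 0.0772). The fall at 3 h in KO was lost without the first KO 0 h array (-0.51, limma adjusted p = 0.0835) and without the first KO 3 h array (-0.55, limma adjusted p = 0.0687).

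Of the docking proteins, Irs2 fell early and stayed low. WT levels were 9.43 and 9.84 at 0 h, 8.55, 8.58 and 8.56 at 3 h, 8.31 and 8.35 at 6 h, and 8.36 and 8.38 at 24 h. KO levels were 9.60 and 9.28 at 0 h, 8.57 and 8.59 at 3 h, 8.30 and 8.35 at 6 h, and 8.39 and 8.22 at 24 h. Every array after E2 lay below every 0 h array and close to the array median of 8.20, so the size of the fall is limited by the floor of the array. The changes at 3, 6 and 24 h were -1.07, -1.30 and -1.27 in WT and -0.86, -1.11 and -1.13 in KO (SE 0.11 to 0.12, largest limma adjusted p = 3.97e-05). The steps from 3 to 6 h and from 6 to 24 h did not pass. Irs1 passed in none of the comparisons.

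Igfbp3, which encodes the main carrier of IGF in the circulation, fell furthest and was still falling between 6 and 24 h. Levels in WT were 11.35 and 11.88 at 0 h, 11.14, 10.99 and 10.73 at 3 h, 10.26 and 10.28 at 6 h, and 9.27 and 9.52 at 24 h. Levels in KO were 12.48 and 12.46 at 0 h, 11.36 and 11.33 at 3 h, 10.24 and 10.90 at 6 h, and 9.86 and 9.65 at 24 h. No array of a later time reached one of an earlier time in the same genotype. The change at 24 h was -2.22 ± 0.20 in WT and -2.71 ± 0.20 in KO (SE; 0.214-fold and 0.153-fold, limma adjusted p = 3.26e-06 and 3.60e-07). With all arrays each step passed in both genotypes: -0.66, -0.69 and -0.87 in WT and -1.12, -0.78 and -0.81 in KO. Leaving out the second WT 0 h array ended the call of the first WT step (-0.40, limma adjusted p = 0.134). The WT step from 3 to 6 h was lost without either WT 6 h array (limma adjusted p = 0.0786 and 0.0728). In KO that step was lost without the first KO 6 h array (-0.45, limma adjusted p = 0.146) and with only the compared groups in the fit (limma adjusted p = 0.0868), and the step from 6 to 24 h without the second KO 6 h array (-0.48, limma adjusted p = 0.0756).

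At 0 h Igfbp3 was 0.85 ± 0.20 higher in KO than in WT (1.81-fold, limma adjusted p = 0.0265). That call was lost without either KO 0 h array (limma adjusted p = 0.110 and 0.132) and without the first WT 0 h array (0.59, limma adjusted p = 0.223), and with only the 0 h arrays in the fit (limma adjusted p = 0.185). The difference between the genotypes in the change since 0 h was -0.46, -0.56 and -0.49 at 3, 6 and 24 h and did not pass. The second kept Igfbp3 probe moved the same way (r = 0.98) by less, -1.20 in WT and -1.64 in KO at 24 h.

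Igfbp6, whose protein prefers IGF2 over IGF1, was also lower at 6 and 24 h than at 0 h in both genotypes. The WT arrays gave 11.10 and 11.50 at 0 h, 11.16, 11.21 and 10.84 at 3 h, 10.59 and 10.73 at 6 h, and 10.33 and 10.33 at 24 h. The KO arrays gave 11.46 and 11.52 at 0 h, 11.004 and 10.94 at 3 h, 10.53 and 10.90 at 6 h, and 9.87 and 10.002 at 24 h. The WT arrays at 0 h and 3 h overlapped, and the KO arrays at those times did not. The changes at 3, 6 and 24 h were -0.23 (limma adjusted p = 0.173), -0.64 (0.00195) and -0.97 (1.27e-04) in WT and -0.52 (0.00921), -0.78 (3.94e-04) and -1.55 (1.37e-06) in KO. Without the first WT 0 h array the WT change at 3 h was -0.43 and passed (limma adjusted p = 0.0265). Leaving out the second KO 0 h array ended the 3 h call in KO (limma adjusted p = 0.0551). The change in KO minus that in WT at 24 h was -0.59 as a difference between the genotypes and was not called (limma adjusted p = 0.0959). It passed with the replicate number or the title letter as a block (limma adjusted p = 0.0365 and 0.0437), with array weights (0.0445) and without the second WT 0 h array (-0.78, limma adjusted p = 0.0169).

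Igfbp4, a binding protein that mostly inhibits IGF action and is cut by PAPP-A, dipped at 3 and 6 h and came back by 24 h. Values in WT were 13.64 and 13.55 at 0 h, 12.86, 12.42 and 12.45 at 3 h, 12.32 and 12.28 at 6 h, and 13.29 and 13.26 at 24 h. Values in KO were 12.84 and 12.99 at 0 h, 12.40 and 12.43 at 3 h, 12.14 and 11.93 at 6 h, and 13.19 and 13.22 at 24 h. At 24 h the KO arrays lay above their 0 h arrays and the WT arrays below theirs. The change at 6 h was -1.30 ± 0.12 in WT and -0.87 ± 0.12 in KO (SE; limma adjusted p = 1.06e-06 and 2.72e-05), and the return from 6 to 24 h was 0.98 and 1.17 (limma adjusted p = 1.81e-05 and 4.32e-06). Against 0 h the 24 h level was -0.32 in WT (limma adjusted p = 0.0460) and 0.29 in KO (limma adjusted p = 0.0548). The WT call at 24 h held in 5 of the 17 fits that left out 1 array, with values from -0.36 to -0.27, and was lost with array weights, the mean of probes and no filter (limma adjusted p = 0.0886, 0.0718 and 0.0534). The KO value passed with either replicate block (limma adjusted p = 0.0466 and 0.0481), array weights (0.0173), only the compared groups (0.00971) and the mean of probes (0.40, limma adjusted p = 0.00465).

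Before E2, Igfbp4 was lower in KO than in WT (-0.68 ± 0.12, 0.622-fold, limma adjusted p = 0.00549), 1 of 2 genes called at 0 h, against 4.43% of all genes. This call held in all 17 fits that left out 1 array. It was lost when both doubted 0 h arrays, the first of WT and the second of KO, were left out together (-0.71, limma adjusted p = 0.0971), and when the fit held the 0 h arrays alone (limma adjusted p = 0.0788). At 3, 6 and 24 h the KO value was -0.16, -0.26 and -0.07 relative to WT and did not pass. The change since 0 h was more positive in KO by 0.52, 0.42 and 0.61 at 3, 6 and 24 h. Only the 24 h value passed (limma adjusted p = 0.0403, 1 of 10 genes, against 7.27% of all genes), and it held in 8 of the 17 fits that left out 1 array and not with cyclic loess (0.54, limma adjusted p = 0.0659). A second Igfbp4 probe (r = 0.99) gave -0.17 in WT and 0.50 in KO at 24 h.

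Igfbp5, encoded next to Igfbp2 and able to bind extracellular matrix, had its lowest mean at 3 h and its highest at 24 h in both genotypes. WT values were 14.13 and 13.42 at 0 h, 12.62, 12.27 and 12.18 at 3 h, 13.18 and 13.27 at 6 h, and 14.09 and 14.06 at 24 h. KO values were 13.36 and 13.35 at 0 h, 13.01 and 12.81 at 3 h, 13.56 and 13.30 at 6 h, and 14.48 and 14.51 at 24 h. The KO arrays at 24 h lay above all other arrays, and the WT 3 h arrays below all others. In WT Igfbp5 fell at 3 h (-1.42, SE 0.17, 0.373-fold, limma adjusted p = 7.48e-06) and at 6 h (-0.55, limma adjusted p = 0.0238), and at 24 h the difference of 0.30 did not pass (limma adjusted p = 0.238). In KO the 3 h value of -0.44 and the 6 h value of 0.07 did not pass (limma adjusted p = 0.0683 and 0.812), and at 24 h the gene had risen by 1.14 (2.20-fold, SE 0.18, limma adjusted p = 1.31e-04). The KO value at 3 h passed in 8 of the 28 other fits, among them those with cyclic loess, array weights, the replicate number as a block and only the compared groups (limma adjusted p = 0.0245, 0.0461, 0.0364 and 0.0139). The step from 6 to 24 h was 0.85 in WT and 1.07 in KO (limma adjusted p = 0.00190 and 3.33e-04).

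The KO change of Igfbp5 was more positive than the WT change by 0.98, 0.62 and 0.84 at 3, 6 and 24 h, with 95% intervals of 0.45 to 1.51, 0.07 to 1.18 and 0.29 to 1.39. None of these passed over all genes (limma adjusted p = 0.0810, 0.389 and 0.0659). With the title letter as a block the 3 h and 24 h values passed (1.07 and 0.84, limma adjusted p = 0.0409 and 0.0411), and the 24 h value passed with the replicate number as a block and with array weights (limma adjusted p = 0.0419 and 0.0199). Without the second WT 0 h array, the lower of that pair, they were 1.33, 0.98 and 1.20 and all passed. Without the first WT 0 h array the 24 h rise in WT was 0.66 and passed (limma adjusted p = 0.00348), while the 6 h fall did not (-0.20, limma adjusted p = 0.352). The WT fall at 6 h was also lost without the first or the second WT 6 h array (-0.51 and -0.60, limma adjusted p = 0.115 and 0.0656), and with only the groups compared in the fit (limma adjusted p = 0.0942). The 2 other kept Igfbp5 probes followed at r = 0.97 and 0.99, with -0.82 and -0.18 in KO at 3 h. They did not give the same genotype differences. For the difference in change at 3, 6 and 24 h the first gave 0.55, 0.18 and 0.16. The second gave 1.13, 0.73 and 1.06. KO minus WT at 24 h was 0.05 on the first and 0.56 on the second, beside 0.42 on the main probe.

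Igfbp7, a distant relative with low affinity for IGF, changed least of the genes above background on every array. Array values in WT were 14.66 and 14.56 at 0 h, 14.37, 14.14 and 14.37 at 3 h, 14.09 and 14.21 at 6 h, and 14.45 and 14.46 at 24 h. Array values in KO were 14.38 and 14.41 at 0 h, 13.98 and 14.47 at 3 h, 14.18 and 14.04 at 6 h, and 14.19 and 14.39 at 24 h. The WT arrays at 3 and 6 h all lay below those at 0 h, whereas the KO arrays at 0 and 3 h overlapped. In WT it fell at 3 h (-0.31, limma adjusted p = 0.0414) and at 6 h (-0.46, limma adjusted p = 0.00964). In KO the changes were -0.17, -0.29 and -0.11 at 3, 6 and 24 h and did not pass, but the 3 h value passed when the second KO 3 h array was left out (-0.41, limma adjusted p = 0.00851), and the 6 h value passed with cyclic loess (-0.41, limma adjusted p = 0.0182), the title letter as a block (0.0481), only the compared groups (0.0276) and without either KO 3 h array (0.0181). The changes at 3 and 6 h were not called as different between the genotypes (limma adjusted p = 0.776 and 0.786). The 3 h call held in 8 of the 17 fits that left out 1 array and was lost with array weights or the replicate number as a block (limma adjusted p = 0.0769 and 0.0536), and the 6 h call was lost without the first WT 0 h array (-0.41, limma adjusted p = 0.0571) or the first WT 6 h array (-0.40, limma adjusted p = 0.0748). Igfbp2 passed in no comparison with 0 h or between genotypes, and its step of 0.20 from 6 to 24 h in WT (limma adjusted p = 0.0338) lies at background level.

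**Figure D2:**
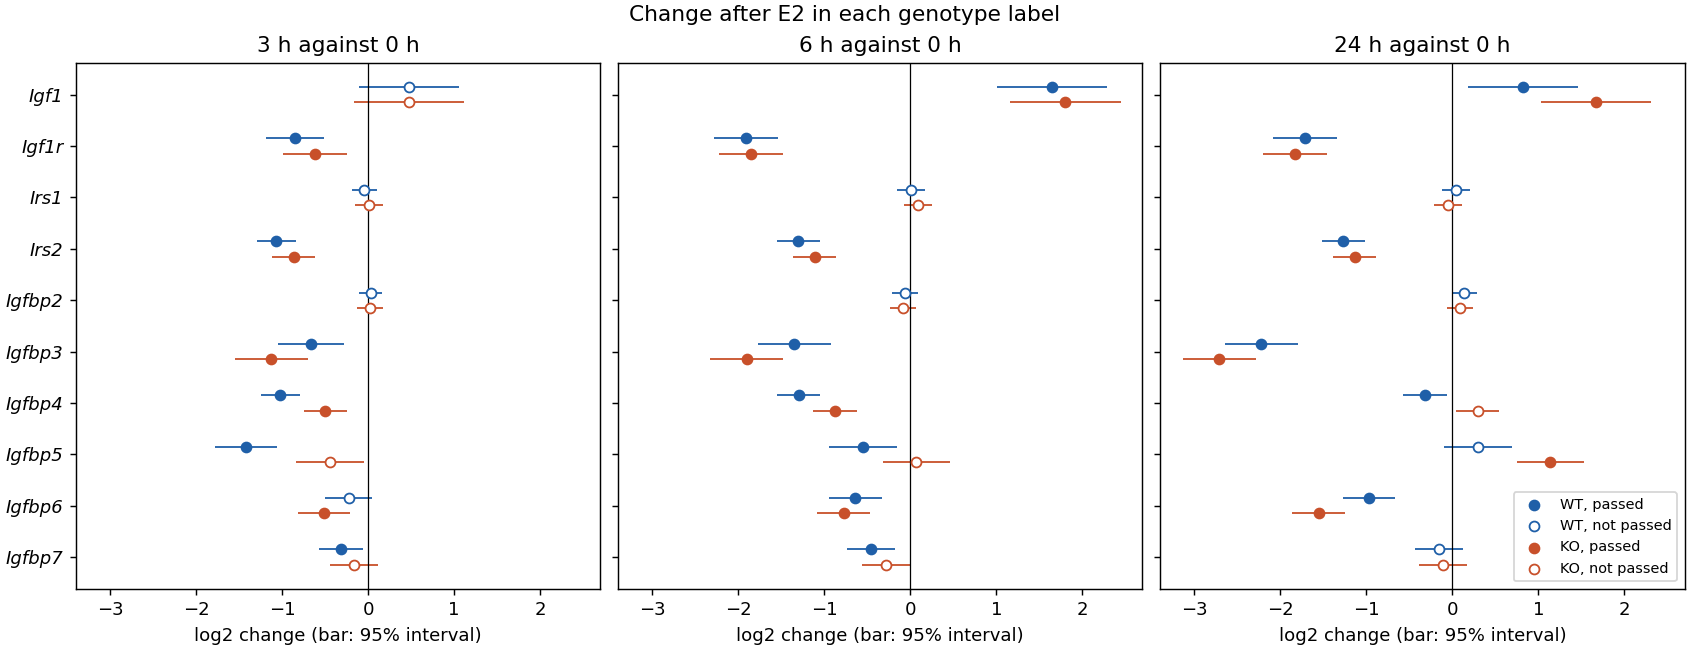
Change since 0 h (log2, with 95% intervals from limma) of the 10 genes at 3, 6 and 24 h in WT and in KO, with filled points for changes that passed an adjusted p of 0.05. Igf1 is the only gene above 0 at 6 h with a passing change, and Igfbp3 reaches -2.22 in WT and -2.71 in KO at 24 h.

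Between the genotypes 2 of the 10 genes differed at 0 h, Igfbp3 upward and Igfbp4 downward in KO, against 4.43% of all genes. At 3 h 1 of the 10 genes differed, Igf1r, against 4.23% of all genes. At 6 and 24 h limma called 0 of the 10 genes, against 0.631% and 8.35% of all genes. At an unadjusted p under 0.05 there were 4 genes at 0 h and 3 at 3 h, beside 18.4% and 18.7% of all genes. There were 2 such genes at 6 h and 2 at 24 h, beside 11.8% and 21.1% of all genes. At 24 h the KO values of Igfbp5 (0.42) and Igfbp6 (-0.39) passed with array weights (limma adjusted p = 0.0129 and 0.00671) and with only the compared groups in the fit (0.00119 and 0.00305), that of Igfbp5 with either WT 0 h array left out (0.0449), and that of Igfbp6 with the replicate number or the title letter as a block (0.0378 and 0.0478). Both arrays of a 24 h group shared 1 weight (1.91 in WT and 1.57 in KO), the highest of all groups. The setting with array weights thus weighed whole groups there, not single arrays. For the difference in the change since 0 h limma called 0 of the 10 genes at each of 3 and 6 h. The shares of all genes were 1.09% and 0.400%. At an unadjusted p under 0.05 there were 2 and 2, beside 13.7% and 11.1% of all genes. At 24 h limma called 1 of the 10 genes, Igfbp4, against 7.27% of all genes. There 3 genes had an unadjusted p under 0.05, beside 22.5% of all genes. The joint limma test over the 3 times called 0 of the 10 genes (6.83% of all genes), with 2 at an unadjusted p under 0.05, beside 23.9% of all genes, and the lowest adjusted p-values were 0.0799 for Igfbp5 and 0.0933 for Igfbp4.

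**Figure D3:**
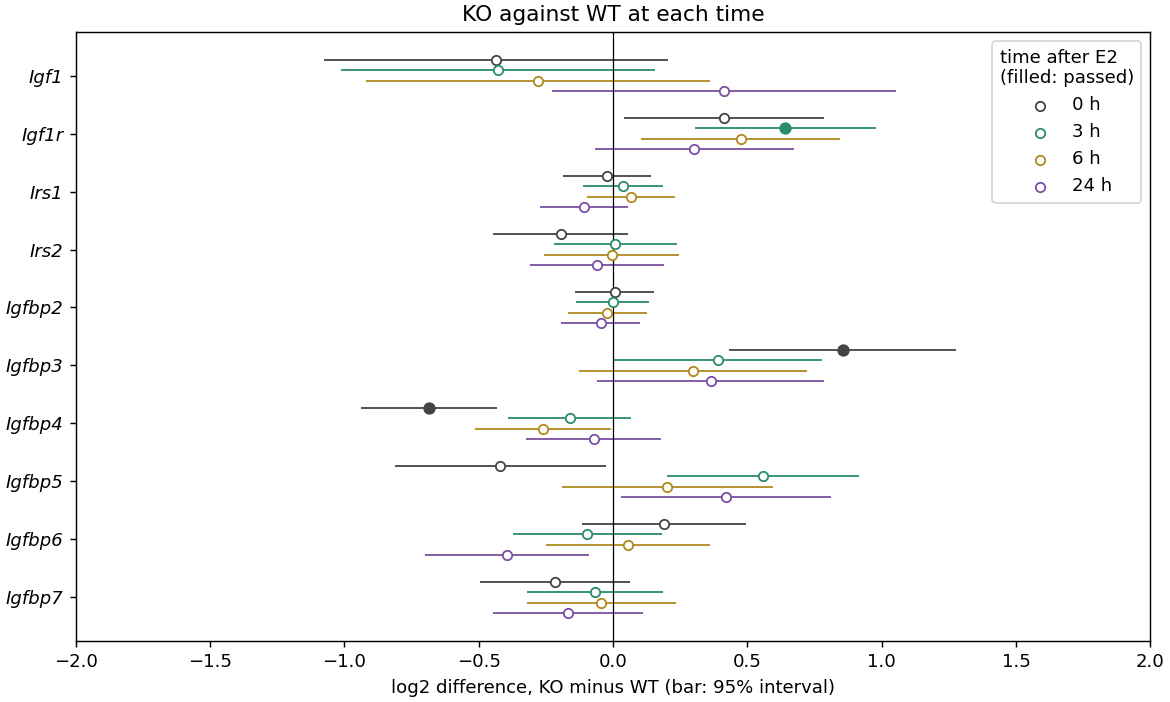
Difference KO minus WT (log2, horizontal axis, with 95% intervals from limma) for each of the 10 genes at 0, 3, 6 and 24 h, in 1 colour per time. Igf1r lies above 0 at all 4 times, Igfbp4 is lowest at 0 h (-0.68), and most other intervals cross 0.

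Across the 17 arrays, which share the time course, Igf1 and Igf1r ran in opposite directions (Pearson r = -0.92). Igf1r ran with Igfbp3 (r = 0.92) and Irs2 (r = 0.84), and Igfbp3 with Igfbp6 (r = 0.92). Igfbp4 was not tied to Igfbp3 (r = -0.02) and ran with Igfbp7 (r = 0.77) and Igfbp5 (r = 0.60). These are descriptions, since the arrays share groups and normalization. The genes whose levels ran closest to Igf1 were Dysf, Slc35b1 and Snrpa (r = 0.98, 0.98 and 0.97). For Igf1r they were Prelp, Pappa and Cyp27a1 (r = 0.99, 0.98 and 0.97), for Irs2 Tbx6, Mmp10 and Kcnu1 (r = 0.99, 0.98 and 0.98), and for Igfbp5 Flrt2, Pcdh7 and Got2 (r = 0.97, 0.97 and 0.96).

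Of 63 other genes of the pathway, 45 were kept. In WT 13 of the 45 rose and 20 fell at 3 h, 12 and 17 at 6 h, and 7 and 20 at 24 h. These are 28.9% and 44.4%, 26.7% and 37.8%, and 15.6% and 44.4% of the 45, beside 22.2% and 24.5%, 21.9% and 22.1%, and 18.9% and 19.0% of all genes. In KO 13 rose and 16 fell at 3 h, 13 and 18 at 6 h, and 6 and 20 at 24 h. These are 28.9% and 35.6%, 28.9% and 40%, and 13.3% and 44.4%, beside 19.0% and 21.4%, 21.8% and 23.0%, and 22.5% and 23.1% of all genes. Between the genotypes 2 were higher and 1 lower in KO at 0 h, 3 and 1 at 3 h, 0 and 0 at 6 h, and 2 and 3 at 24 h. These are 6.67%, 8.89%, 0% and 11.1% of the 45, beside 4.43%, 4.23%, 0.631% and 8.35% of all genes.

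Among ligands and hormone input, Ghr, the growth hormone receptor, fell at all 3 times, with changes of -1.27 in WT and -1.53 in KO at 24 h (limma adjusted p = 1.56e-05 and 1.45e-06). Socs2, a feedback inhibitor of growth hormone signalling, rose by 1.44 in WT and 1.16 in KO at 6 h (limma adjusted p = 4.23e-06 and 2.28e-05). With the mean of kept probes the Socs2 rises were 0.79 and 0.63 and the Ghr change in WT at 24 h was -0.76, all of which passed. Igf2, the second ligand, was 1.35 higher in KO than in WT at 0 h (limma adjusted p = 0.00122), 0.74 higher at 3 h (0.0208) and 0.97 higher at 24 h (0.00458). It fell by 24 h in both genotypes (-1.03 in WT and -1.41 in KO, limma adjusted p = 4.52e-04 and 1.72e-05). At 6 h the change was -0.36 in WT and did not pass (limma adjusted p = 0.121) and was -1.36 in KO (limma adjusted p = 2.17e-05), and the difference between these did not pass (limma adjusted p = 0.131). The 0 h difference of Igf2 was lost without both doubted 0 h arrays (1.08, limma adjusted p = 0.0839) or with only the 0 h arrays in the fit (limma adjusted p = 0.0649). Likewise the 3 h difference of Igf2 was lost without the first or the second KO 3 h array or the third WT 3 h array (0.72, 0.76 and 0.58), with array weights (0.71, limma adjusted p = 0.0664) and with the replicate number as a block (0.58, limma adjusted p = 0.0623).

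Among genes that set how much IGF is free, Pappa, the protease that cleaves IGFBP4, fell at 6 h (-1.34 in WT and -1.11 in KO, limma adjusted p = 4.97e-06 and 2.23e-05). Stc1, stanniocalcin 1, which inhibits that protease, fell at 6 h (-2.03 in WT and -1.49 in KO, limma adjusted p = 7.73e-07 and 8.68e-06). At 24 h its WT arrays read 9.22 and 9.46 and its KO arrays 10.51 and 10.36, without overlap. The KO level was 1.10 higher (limma adjusted p = 0.00207) and the change since 0 h differed by 1.07 (limma adjusted p = 0.0217), a call lost in 4 of the 17 fits that left out 1 array. Stc2, stanniocalcin 2, went the other way, with a higher mean at 3, 6 and 24 h than at 0 h in both genotypes. Its mean was 9.39 at 0 h and 10.36 at 24 h in WT, and 9.30 and 9.91 in KO. It passed the joint test of the difference in change over the 3 times (limma adjusted p = 0.0369). Igf2r, which takes up and clears IGF2, fell at 3 h (-1.13 in WT and -1.21 in KO, limma adjusted p = 1.11e-08 and 3.44e-08). Among receptors and adaptors, Insr, the insulin receptor, fell in KO at 6 and 24 h (-1.34 and -1.89, limma adjusted p = 1.14e-04 and 6.13e-06) and in WT (-1.09 and -0.93, limma adjusted p = 6.77e-04 and 0.00319). Leaving out the second WT 0 h array ended its 24 h call in WT (-0.67, limma adjusted p = 0.0537). With the mean of its kept probes the Insr changes were smaller, at -0.46 and -0.73 in KO and -0.47 and -0.39 in WT at 6 and 24 h, and still passed. Gab1, a docking protein, fell at 6 h (-2.11 in WT and -2.14 in KO, limma adjusted p = 1.73e-07 and 1.35e-07), and Ptpn1, a phosphatase of the insulin receptor, rose at 3 h by 1.13 in WT and by 1.00 in KO (limma adjusted p = 1.99e-07 and 2.35e-06).

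**Figure D4:**
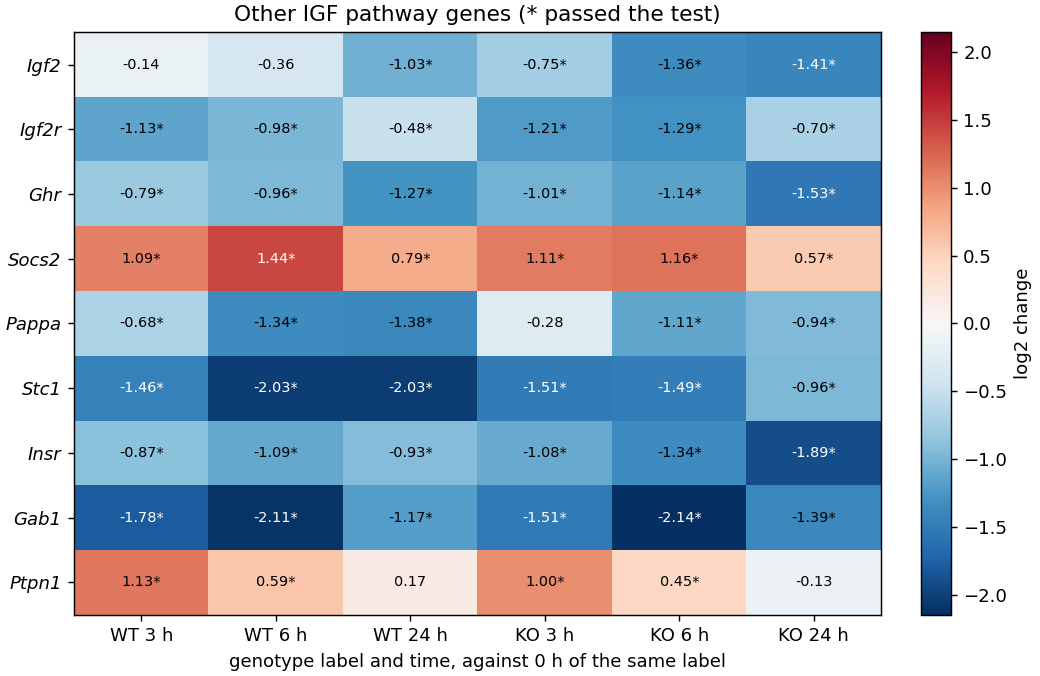
Heat map of the change since 0 h (log2, colour, number in each cell) at 3, 6 and 24 h in WT and KO (columns) for the 9 pathway genes (rows) that were among the 4 largest passing changes of the 45 kept genes at any time. Stc1, Gab1, Igf2r, Ghr, Pappa and Insr lie below 0 at every time and Socs2 above 0.

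Further down, 19 of the 25 listed genes of the PI3K, AKT and MTOR arm were kept. Of these 6, 5 and 3 rose and 8, 7 and 6 fell in WT at 3, 6 and 24 h, and 6, 5 and 2 rose and 6, 7 and 7 fell in KO. Of the 12 listed genes of the RAS and MAPK arm 6 were kept, of which 3, 4 and 2 rose and 2, 1 and 2 fell in WT, and 3, 3 and 1 rose and 2, 2 and 2 fell in KO. Of all genes 18.9% to 22.5% rose and 19.0% to 24.5% fell in these comparisons. The medians of these arms lay between -0.15 and 0.17 in all 6 comparisons with 0 h.

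Whole uterus mixes cell types, and fewer cells of a type cannot be told apart from less RNA per cell. The counts of markers below stand beside all genes, of which 18.9% to 22.5% rose and 19.0% to 24.5% fell in these comparisons with 0 h. Adipocyte markers moved with several of the genes that fell. Of the 6 kept markers 6 fell in WT at 3 h and in KO at 3, 6 and 24 h. In WT 5 fell at 6 and 24 h. Plin1 (7.90 to 8.65) and Fabp4 (7.90 to 8.44), among these 6, lay near the array median. Relative to its mean over all arrays, the list mean was 0.72 to 1.24 in WT and 1.75 to 1.80 in KO at 0 h. In the same order it was -0.56 to 0.02 and -0.75 to 0.37 at 3 h. At 6 h it was -0.89 to -0.77 and -0.80 to 0.54, and at 24 h -0.71 to -0.48 and -0.66 to -0.41. The second KO 6 h array was the one at 0.54, and it also had the lower Igf1 and the higher Igf1r, Igfbp3 and Igfbp6 of its pair. The second KO 3 h array was the one at 0.37, and it had the lower Igf1 and the higher Igf1r of its pair. Its Igfbp3 and Igfbp6 were the lower of that pair (11.33 against 11.36, and 10.94 against 11.004). Over the 17 arrays the adipocyte mean ran with Igf1r at r = 0.84 and against Igf1 at r = -0.77. The mean of the stromal fibroblast markers dipped at 3 and 6 h and came back by 24 h, as Igfbp4 did. It ran with Igfbp4 and with Igfbp5 at r = 0.86 over the 17 arrays. Igfbp4 differed in WT at 24 h, when its mean of 13.28 was below the 13.60 at 0 h while the stromal mean was above. Igfbp5 differed at 6 h, when its mean was already above that at 3 h in both genotypes. Of the 10 kept stromal markers 9, 7 and 2 fell and 1, 1 and 2 rose in WT at 3, 6 and 24 h. In KO 5, 5 and 2 fell and 1, 1 and 5 rose. The stromal mean in WT went from 0.38 at 0 h to -0.38, -0.40 and 0.56 at 3, 6 and 24 h. In KO it went from 0.02 to -0.20, -0.31 and 0.51. The first WT 0 h array, with the higher Igf1 and Igfbp5, had a stromal mean of 0.66 and the second 0.10. Over the 17 arrays, though, Igf1 was not tied to the stromal mean (r = -0.03). Of 9 endothelial markers 3, 6 and 6 fell and 2, 1 and 0 rose in WT, and 3, 5 and 6 fell and 1, 1 and 1 rose in KO, at 3, 6 and 24 h. Their mean went from 0.15 in WT and 0.18 in KO at 0 h to -0.29 and -0.20 at 24 h, and ran with Igfbp3 at r = 0.91 and with Igfbp6 at r = 0.89. The epithelial mean went from -0.11 in WT and -0.26 in KO at 0 h to 0.41 and 0.28 at 24 h. It ran against Igfbp3 at r = -0.88. Of 11 epithelial markers 8 rose and 2 fell in WT at 24 h, and 5 rose and 2 fell in KO. At 3 h 3 rose and 6 fell in WT, and 3 rose and 5 fell in KO. Of 10 macrophage markers 9 fell in KO at 24 h and 0 in WT, and their mean at 0 h was 0.01 to 0.03 on the WT arrays and 0.23 to 1.02 on the KO arrays. The second KO 0 h array was the one at 1.02. Its mean of 8 granulocyte markers was 1.00, against -0.05 on the first. The part of these cell types in the changes was not tested.

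**Figure D5:**
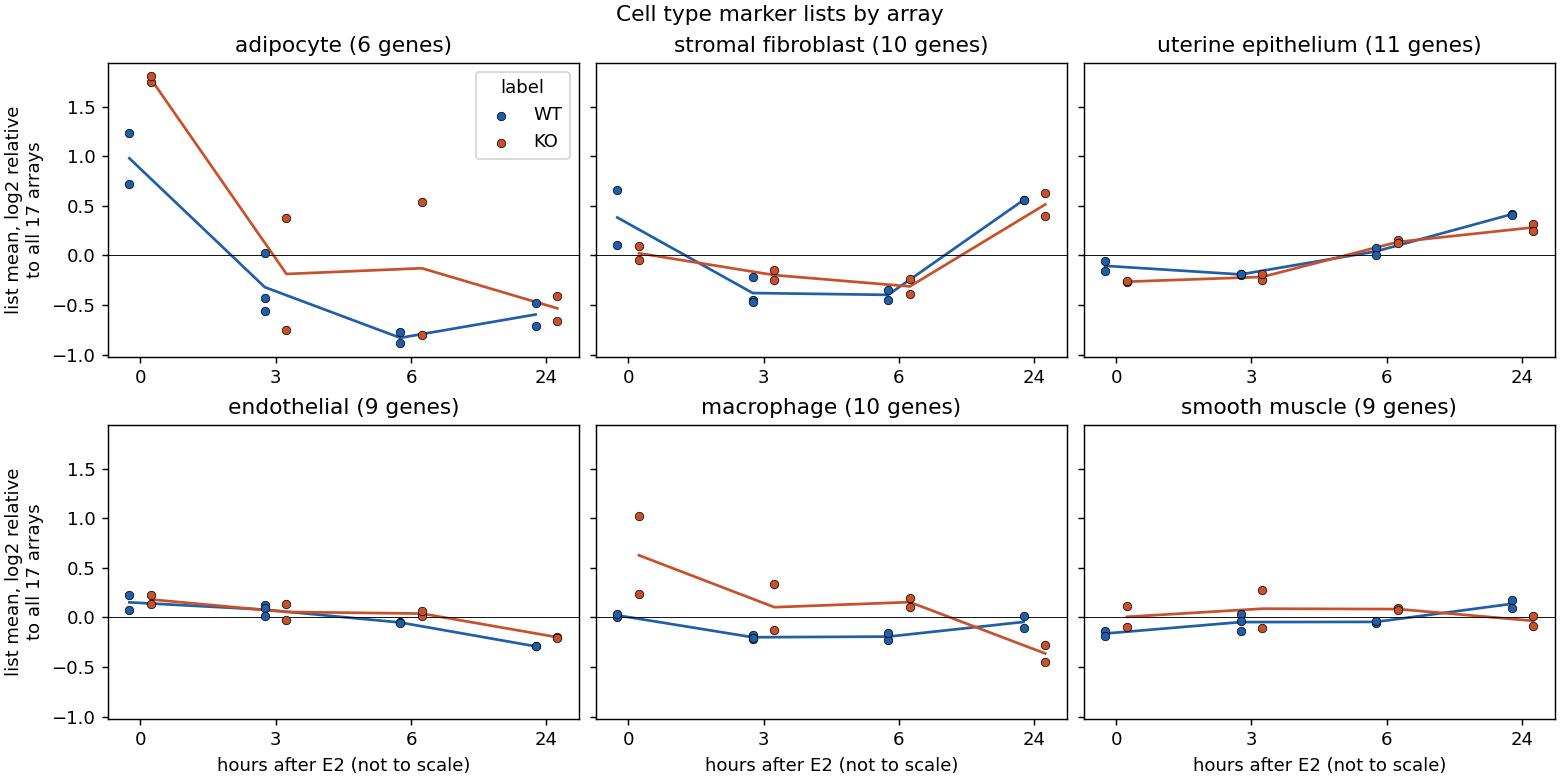
Mean level of each cell type marker list (log2, relative to its mean over the 17 arrays) by time after E2 in WT and KO, with 1 point per array. The adipocyte list drops after 0 h in both genotypes, and the stromal list dips at 3 and 6 h and returns by 24 h.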

How the data were processed

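Uterine total RNA was biotin-labelled for bead arrays, per the labels' protocols, and scanner values were read with BeadStudio, per the submitters' processing notes. The authors deposited log2 values after quantile normalization, as the table itself shows: all 17 columns hold the same sorted values, from 7.39 to 15.94. No source used here gives the background correction or offset, and 0 value columns were left unused. Of 45281 probes, 34885 had 1 gene symbol, 18 several and 10378 were unlisted. Of the 34903 listed, 34807 matched RefSeq (GRCm38.p6) by Entrez number, which changed 0 symbols.

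A probe was kept if above the array median on at least 2 arrays, and the brightest kept probe stood for its gene. A linear model with 1 mean per group was fitted to all 17 arrays with limma 3.58.1 (R 4.3.3), with empirical Bayes moderation and Benjamini-Hochberg adjustment over 14737 genes, two-sided, threshold 0.05. Residual and prior degrees of freedom were 9 and 4.56. The script was tested on simulated data. For arrays, their number limits the precision. Group and replicate came from the labels, and replicates were not paired.

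The members and lists were chosen with earlier results of these data known. Named were all members, in each comparison up to 4 passing pathway genes with the largest change, and the 3 kept genes most correlated with a member. Stc2 was named beside Stc1 outside this rule. Alternatives covered probe filter and choice, intensity trend, scaling, array weights, the groups fitted, replicate blocks and leaving out each array. The array weights came out equal for both arrays of every group of 2, from 0.455 in WT at 0 h to 1.91 in WT at 24 h. Within such a group they cannot set 1 array against the other. Leaving out both doubted 0 h arrays was added after seeing the data. Of these, the first WT 0 h array had a stromal marker mean of 0.66, against 0.10 on the second. The second KO 0 h array had a macrophage marker mean of 1.02, against 0.23 on the first.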

Additional observations from a re-analysis of the deposited data

Results flagged for a closer look

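The change of Igfbp4 between 0 and 24 h differed between the genotypes by a test of the difference itself: the KO change minus the WT change was 0.61 on the log2 scale, with a 95% interval of 0.26 to 0.97 (limma adjusted p = 0.0403). The WT level was lower at 24 h than at 0 h and the KO level higher, on every array of both groups. At 0 h KO was at -0.68 relative to WT, and at 24 h at -0.07. The call for the difference in change was not stable. It was lost with cyclic loess (0.54, limma adjusted p = 0.0659) and in many of the fits that each left out an array. Igfbp4 did not pass the joint limma test over all times (adjusted p = 0.0933). Of all genes, 7.27% passed for the difference in change at 24 h.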

How the results depend on the processing

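Of the 59 passing results among 170 pairs of a member and a comparison, 38 passed under all alternatives run and 21 were lost under at least 1, and no called direction turned. In the 6 comparisons with 0 h every alternative other than leaving out an array kept the count of members called within 1.5 times. For KO against WT at 0 h the count of 2 went to 0 with only the compared groups in the fit and to 0 without both doubted 0 h arrays. At 3 h the count of 1 went to 0 with the mean of probes, with array weights and with the replicate number as a block, and to 2 without both doubted arrays. At 24 h the count of 0 went to 2 with array weights, 5 with only the compared groups, 1 with the replicate number block and 1 with the block by title letter. For the difference in change at 3 h the count of 0 went to 1 with the letter block. At 24 h the count of 1 went to 0 with cyclic loess, 3 with array weights, 3 with the number block, 3 with the letter block and 0 without both doubted arrays. The joint test's count of 0 went to 1 with the mean of probes, array weights or the letter block. The cause was not tested. Leaving out 1 array gave 4 to 7, 6 to 8 and 4 to 6 members in WT at 3, 6 and 24 h, 4 to 6, 6 to 7 and 6 to 7 in KO, 1 to 5, 0 to 2, 0 to 1 and 0 to 1 between the genotypes at 0, 3, 6 and 24 h, 0 to 1, 0 to 1 and 0 to 4 for the difference in change, and 0 to 2 for the joint test. In fits that left 1 array in a group, that array was assumed to vary like the other groups. The replicate numbers did not pair the samples: deviations of same-numbered arrays correlated at -0.19 to 0.31 over 56 pairs, with 11 over 0.1, and by title letter at -0.28 to 0.31 over 50 pairs. The medians were -0.001 and -0.03. Calls that changed with a block therefore rest on a pairing that these values do not show. Replicate number 3 stands for the third WT 3 h array alone, so the block by number also takes that array out of its group mean. Other scalings moved the median of all genes by under 0.1. Signal near the array median limits Irs1, Igfbp2 and the low end of Irs2.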
